A study of Mus musculus with 4 samples.

Results

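The genes described here handle fatty acids at their entry into the cell and in the lipid droplet. They are Lpl, Lipe, Pnpla2, Cd36, Fabp3, Fabp4, Fabp5, Plin2, Pparg and Angptl4. They were chosen by symbol, with earlier results of these data known, and 9 of the 10 had a row among the 20193 genes measured. Fabp5 was not analysed here. The cells were C2C12, a mouse myoblast line kept in growth medium. Of the 4 cultures, 2 were a polyclonal line that carried the long noncoding RNA Myolinc in the plasmid pcDNA3.1/Zeo(+), and 2 carried that plasmid with no insert. Both groups were transfected with Lipofectamine and selected with Zeocin. Total RNA of each culture was measured on 1 Affymetrix array. As far as the labels say, each group was a single selected line, so the plasmid and the line cannot be told apart, and the level of Myolinc itself was not analysed here.

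Lipoprotein lipase, the product of Lpl, is secreted and frees fatty acids from triglyceride in circulating lipoproteins, and ANGPTL4 is a secreted protein that inactivates it. CD36 and the fatty acid binding proteins carry the freed fatty acids across the membrane and through the cytosol. Muscle cells burn them or store them as triglyceride in droplets coated by perilipins, from which adipose triglyceride lipase (Pnpla2) and hormone-sensitive lipase (Lipe) release them again. PPAR gamma, encoded by Pparg, is a nuclear receptor for fatty acid ligands and the main transcription factor of adipocytes, and several of these genes are known PPAR targets.

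Expression values are on the log2 scale, so a difference of 1 is a doubling. A gene was said to have risen or fallen when limma's moderated test gave an adjusted p (Benjamini-Hochberg over all genes) under 0.05. By that rule 4.61% of all genes rose and 4.65% fell, in sum 9.26%. Of the 9 lipid genes 3 rose in the Myolinc line (Lpl, Fabp3 and Lipe), 1 fell (Angptl4) and 5 did not pass (Pnpla2, Cd36, Fabp4, Plin2 and Pparg). The median log2 fold change of the 9 was 0.10, beside 0.02 over all genes. Because the 9 were chosen with earlier results of these data known, their counts beside all genes are not a blind comparison. For 7 of the 9 the Myolinc and empty vector arrays did not overlap, but neither did they for 53.9% of all genes. Cells with more of a transcript and more cells that hold it cannot be told apart in RNA of whole cultures. The labels call the arrays biological replicates without naming separate transfections. Each p-value here reflects only array-to-array spread, that of the gene itself combined with a value drawn from all fitted probe sets. This spread may be technical.

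**Figure D1:**
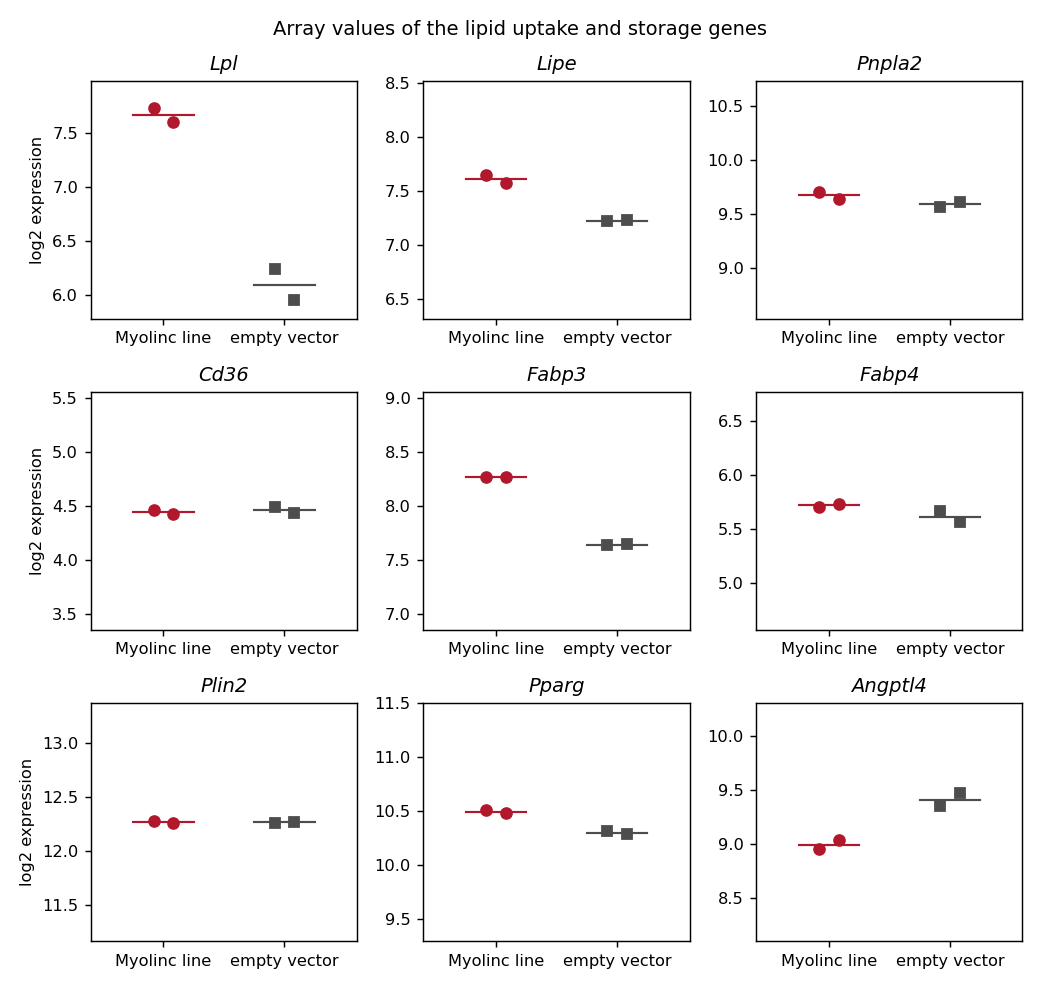
Log2 expression (vertical axis) of 9 lipid genes on each array of the Myolinc line (red circles, left) and of empty vector cells (grey squares, right), with horizontal lines at group means; every panel spans the same range on its axis. Lpl stands furthest apart, with 7.73 and 7.61 in the Myolinc line and 6.25 and 5.95 in empty vector cells, while the points of Plin2 and Cd36 overlap between the groups.

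Among the genes that act on lipoproteins outside the cell, the lipase and its inhibitor moved in opposite directions. Lpl had 7.73 and 7.61 in the Myolinc line, against 6.25 and 5.95 in empty vector cells. Both Myolinc arrays lay above both empty vector arrays, and the difference exceeded the larger of the group SDs 7.61 times. Lpl was 2.97-fold higher in the Myolinc line (95% interval 2.35 to 3.74, log2 fold change 1.57, SE 0.12, adjusted p = 0.0141 in limma). In empty vector cells its readings were below 7.27, the median of all probe sets (called the probe set median below), so the size of the rise depends on low readings. Angptl4 had 8.95 and 9.03 in the Myolinc line, against 9.35 and 9.46 in empty vector cells. Here both Myolinc arrays lay below both empty vector arrays. Angptl4 fell by 0.42 on the log2 scale (SE 0.07), narrowly past the threshold (adjusted p = 0.0484 in limma), and the 95% interval of the difference ran from -0.62 to -0.21. Without empty vector replicate 1 or 2, neither gene passed, as was so for all genes. With any 1 array left out, the log2 fold change lay between 1.42 and 1.71 for Lpl and between -0.48 and -0.36 for Angptl4. Without either Myolinc array Lpl passed and Angptl4 did not. With each array centred on its median Angptl4 did not pass (0.0560).

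Other genes that mature, anchor or assist lipoprotein lipase, or take up lipoproteins, were mixed. Of 24 measured genes of this list, which includes Lpl and Angptl4, 4 rose, 3 fell and 17 did not pass, with a median log2 fold change of 0.01 beside 0.02 over all genes. Lmf1, whose product folds lipoprotein lipase in the endoplasmic reticulum, rose by 0.64 (SE 0.06, adjusted p = 0.0163 in limma). It had 10.08 and 10.10 in the Myolinc line, against 9.46 and 9.44 in empty vector cells, so the groups stood well apart. Sdc1, a heparan sulfate proteoglycan that binds lipoproteins, rose by 0.47 (SE 0.06). The lipoprotein receptor genes Lrp1 (log2 fold change -0.44, SE 0.06) and Lrp8 (-0.34, SE 0.06) fell. Gpihbp1, which holds the lipase on capillary walls, had a log2 fold change of 0.04 (SE 0.08), and Apoc2, its activating cofactor, had -0.15 (SE 0.07); neither passed.

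Of the genes for uptake and transport inside the cell, the row named Fabp3 rose and the rows for Cd36 and Fabp4 did not pass. Fabp3, which encodes the fatty acid binding protein of heart and skeletal muscle, had 8.27 and 8.26 in the Myolinc line, against 7.63 and 7.64 in empty vector cells. Replicates differed far less than the groups did. The row was 1.54-fold higher in the Myolinc line (95% interval 1.39 to 1.72, log2 fold change 0.63, SE 0.06, adjusted p = 0.0164 in limma). Without empty vector replicate 1 or 2 the log2 fold change was 0.62 and 0.63, and this row did not pass, as was so for all genes.

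The place of this row in the probe set numbering did not match the Fabp3 gene. Probe set numbers followed chromosome order: of 12903 genes whose flanking numbers both belonged to genes of a single chromosome, 98.7% lay on that chromosome. Fabp3 is on chromosome 4 in RefSeq (GRCm38.p6), but its probe set number stood between those of Hsp90b1 and Stab2, both on chromosome 10. RefSeq places the pseudogene Fabp3-ps1 on chromosome 10, with Hsp90b1 as the nearest preceding gene that has a row. The nearest following gene with a row is Nt5dc3, not Stab2, so the order of numbers and of genes matched on one side of the pseudogene and not on the other. Whether the row reads the Fabp3 gene, this pseudogene or both was not tested. The numbers flanking Lpl, Lipe, Fabp4, Plin2 and Pparg belonged to genes of the same chromosome as each of these. Cd36, on chromosome 5, had a chromosome 6 gene (Cycs) before it and a chromosome 5 gene (Gnai1) after it, and for Pnpla2 and Angptl4 only the number before could be placed, on the same chromosome as each.

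Cd36, the fatty acid translocase, had 4.46 and 4.43 in the Myolinc line, against 4.50 and 4.44 in empty vector cells. The groups overlapped and all 4 readings were far below the probe set median, so a change at low expression was not detectable; the 95% interval of the log2 difference ran from -0.18 to 0.14. Fabp4, the binding protein of adipocytes and also of macrophages and capillary endothelium, had 5.71 and 5.73 in the Myolinc line, against 5.67 and 5.57 in empty vector cells. These readings were low as well and the difference did not pass (log2 fold change 0.10, SE 0.07, adjusted p = 0.418 in limma). Its chromosomal neighbours of the same family, Fabp9 (log2 fold change 0.10, SE 0.10) and Fabp12 (0.35, SE 0.11), did not pass.

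Across 21 measured genes of fatty acid uptake and binding, which include Cd36, Fabp3 and Fabp4, 2 rose, 1 fell and 18 did not pass. The largest rise in this list was that of Fabp7, the binding protein known from brain and neural progenitors. Fabp7 had 10.11 and 10.11 in the Myolinc line, against 7.91 and 8.17 in empty vector cells. The log2 fold change was 2.07 (SE 0.10, adjusted p = 0.00741 in limma). Without empty vector replicate 1 or 2 it was 1.94 and 2.19, and Fabp7 did not pass, as was so for all genes. Slc27a1, which encodes the fatty acid transport protein FATP1 of muscle and fat, fell by 0.49 (SE 0.07). It had 10.85 and 10.87 in the Myolinc line, against 11.41 and 11.30 in empty vector cells. With the median log2 fold change of its chromosome, 8, removed, Slc27a1 had -0.36 and did not pass.

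**Figure D2:**
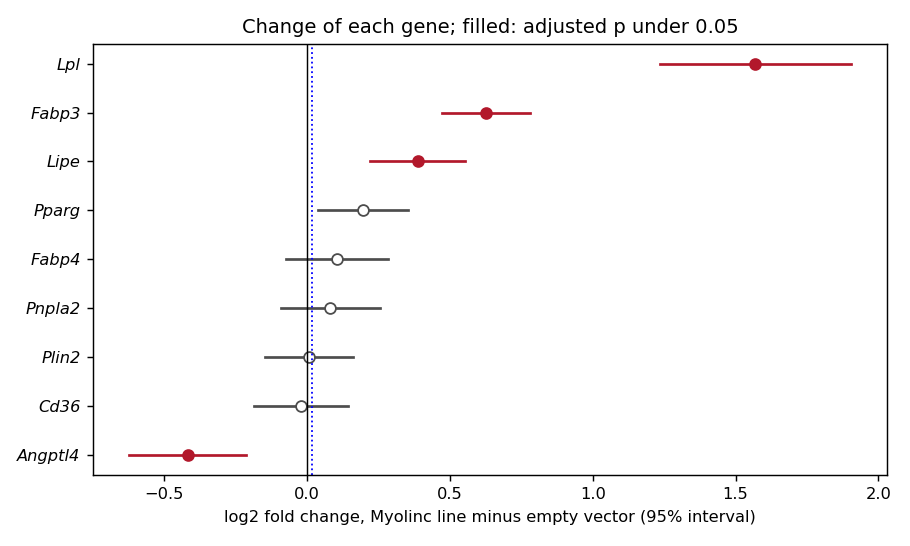
Log2 fold change (horizontal axis, Myolinc line minus empty vector) of 9 lipid genes with 95% intervals from limma; filled red points have an adjusted p under 0.05, open grey points do not, and the dotted line is the median over all genes, 0.02. Lpl (1.57), Fabp3 (0.63) and Lipe (0.39) lie to the right, Angptl4 (-0.42) to the left, and the interval of Pparg lies above 0 although its adjusted p was 0.125.

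At the lipid droplet, hormone-sensitive lipase rose modestly while adipose triglyceride lipase and perilipin 2 did not pass. Lipe had 7.64 and 7.58 in the Myolinc line, against 7.22 and 7.23 in empty vector cells. The groups did not overlap, and Lipe was 1.31-fold higher in the Myolinc line (95% interval 1.17 to 1.47, log2 fold change 0.39, SE 0.06, adjusted p = 0.0374 in limma). It did not pass when any 1 array was left out, with log2 fold changes between 0.35 and 0.42. Without either empty vector array this was so for all genes. With each array centred on its median Lipe did not pass either (0.0621). Pnpla2, which takes the preceding step of triglyceride breakdown, had 9.71 and 9.64 in the Myolinc line, against 9.57 and 9.61 in empty vector cells. Its arrays did not overlap by a small margin, and the difference did not pass (log2 fold change 0.08, 95% interval -0.09 to 0.25, adjusted p = 0.519 in limma). Plin2, which coats droplets in most cell types and is commonly used as a sign of lipid load, had 12.28 and 12.26 in the Myolinc line, against 12.26 and 12.27 in empty vector cells. All 4 readings of Plin2 lay together, and the 95% interval of the log2 difference, -0.15 to 0.16, bounds a change in either direction.

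The upstream sequences of the droplet genes are shown for comparison, because Lipe rose and Pnpla2 and Plin2 did not pass. Each is the 250 bases before a RefSeq start site (GRCm38.p6), read 5′ to 3′ on the strand of the gene. Capitals mark the hexamer AGGTCA, which nuclear receptors such as PPAR and RXR bind, and the E-box CANNTG, which MyoD and other basic helix-loop-helix factors bind, on either strand. The windows before the Lipe start sites are chr7:25395988-25396237 and chr7:25390113-25390362, both on the minus strand. The Pnpla2 window is chr7:141454938-141455187 on the plus strand, and that of Plin2 is chr4:86670060-86670309 on the minus strand.
Lipe, upstream start: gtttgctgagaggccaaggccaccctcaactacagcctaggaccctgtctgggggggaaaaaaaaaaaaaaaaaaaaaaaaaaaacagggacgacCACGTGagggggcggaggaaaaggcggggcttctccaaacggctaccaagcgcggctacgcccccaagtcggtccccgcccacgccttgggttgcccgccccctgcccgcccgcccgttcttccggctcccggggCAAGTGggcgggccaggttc
Lipe, downstream start: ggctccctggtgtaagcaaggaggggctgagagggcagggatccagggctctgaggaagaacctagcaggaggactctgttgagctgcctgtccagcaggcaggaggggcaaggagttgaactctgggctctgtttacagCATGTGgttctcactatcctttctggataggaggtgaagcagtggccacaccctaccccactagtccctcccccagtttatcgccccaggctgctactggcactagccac
Pnpla2: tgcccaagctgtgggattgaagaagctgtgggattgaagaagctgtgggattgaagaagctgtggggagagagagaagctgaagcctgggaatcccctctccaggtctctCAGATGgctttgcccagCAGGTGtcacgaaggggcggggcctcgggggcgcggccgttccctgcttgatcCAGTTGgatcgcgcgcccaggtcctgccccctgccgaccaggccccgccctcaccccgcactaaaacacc
Plin2: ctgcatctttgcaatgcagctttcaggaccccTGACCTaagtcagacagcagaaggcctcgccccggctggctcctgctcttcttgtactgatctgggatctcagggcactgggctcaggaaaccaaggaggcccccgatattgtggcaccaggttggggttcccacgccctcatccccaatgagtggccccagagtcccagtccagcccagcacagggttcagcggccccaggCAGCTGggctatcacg

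The Lipe windows held 2 and 1 E-boxes and the Pnpla2 window 3, and none of these windows held AGGTCA. The Plin2 window held 1 of each. RefSeq windows were at hand for 6 of the lipid genes, 9 windows in all: AGGTCA was found in the Plin2 and Cd36 windows and in 2 of 3 Pparg windows, and not in those of Lipe, Pnpla2 or Fabp3. Of 32851 promoter windows of this length, 14.0% held AGGTCA and 66.2% an E-box. The direct repeat of AGGTCA with a spacer of 1 base, on which PPAR and RXR bind as a pair, stood in 0.0335% of all windows and in 0 of these 9. Such matches describe the letters in the window and do not show binding.

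Of 25 measured genes of the droplet coat and of lipolysis, which include Lipe, Pnpla2 and Plin2, 3 rose, 0 fell and 22 did not pass. Besides Lipe these were Plin3, a perilipin of small droplets, with a log2 fold change of 0.52 (SE 0.07, adjusted p = 0.0289 in limma), and Abhd6, a monoacylglycerol lipase, with 0.37 (SE 0.06, adjusted p = 0.0458). Abhd6 did not pass with each array centred on its median (adjusted p = 0.102 in limma) or when adjusted over all probe sets (0.0540). With further quantile normalization it did pass (0.0291). Plin3 had 10.38 and 10.30 in the Myolinc line, against 9.77 and 9.86 in empty vector cells. The protein partners of adipose triglyceride lipase did not pass: its coactivator gene Abhd5 had a log2 fold change of 0.03 (SE 0.07) and its inhibitor gene G0s2 had 0.34 (SE 0.09, adjusted p = 0.105). The muscle perilipin gene Plin5 had 0.11 (SE 0.13) and the adipocyte perilipin gene Plin1 had -0.04 (SE 0.16). Of 19 genes of triglyceride synthesis 0 rose, 18 did not pass and 1 fell, Gpd1l, related to glycerol-3-phosphate dehydrogenase, with a log2 fold change of -0.38 (SE 0.06).

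The nuclear receptor Pparg was read well above the probe set median in both groups, with 10.51 and 10.49 in the Myolinc line, against 10.32 and 10.29 in empty vector cells. The arrays did not overlap, but the log2 fold change of 0.20 (SE 0.06, 95% interval 0.04 to 0.35) did not pass over all genes (adjusted p = 0.125 in limma). It did pass when the variance model was trended and robust (0.0166), and also when probe sets below the probe set median were dropped (0.0258). A single row stands for Pparg, so its isoforms, which start at separate promoters, were not resolved. The sister receptor genes Ppard (log2 fold change 0.34, SE 0.06, adjusted p = 0.0522) and Ppara (-0.05, SE 0.07) did not pass, nor did the partner gene Rxra (0.25, SE 0.07). Of 18 genes of PPARs and their coregulators 2 rose and 0 fell. These were the coactivator genes Ppargc1a, with 7.25 and 7.42 in the Myolinc line, against 5.89 and 6.12 in empty vector cells (log2 fold change 1.33, SE 0.11, adjusted p = 0.0155), and Ppargc1b (0.56, SE 0.06, adjusted p = 0.0222). In empty vector cells the readings of Ppargc1a were below the probe set median, so the size of its rise depends on low readings.

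Known PPAR targets and enzymes of fatty acid oxidation moved both ways. Of 30 measured genes, which include Angptl4, Fabp3 and Plin2, 5 rose, 2 fell and 23 did not pass, with a median log2 fold change of 0.10. Pdk4, a kinase that shuts off pyruvate dehydrogenase and a widely used PPAR target in muscle, fell. It had 10.01 and 9.96 in the Myolinc line, against 10.83 and 10.85 in empty vector cells (log2 fold change -0.86, SE 0.06, adjusted p = 0.0120 in limma). Angptl4 was the other gene of this list that fell. Among the rises, the thiolase gene Acaa2 had 0.53 (SE 0.08), the trifunctional protein gene Hadha 0.38 (SE 0.06) and Cpt1a, which admits fatty acids to mitochondria, 0.36 (SE 0.06). With each array centred on its median, Hadha (adjusted p = 0.0649 in limma) and Cpt1a (0.0836) did not pass, while Acaa2 did (0.0427). With chromosome medians removed, Cpt1a did not pass either (0.0580), while Hadha (0.0439) and Acaa2 (0.0406) did. The uncoupling protein gene Ucp2 rose by 0.46 (SE 0.06).

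**Figure D3:**
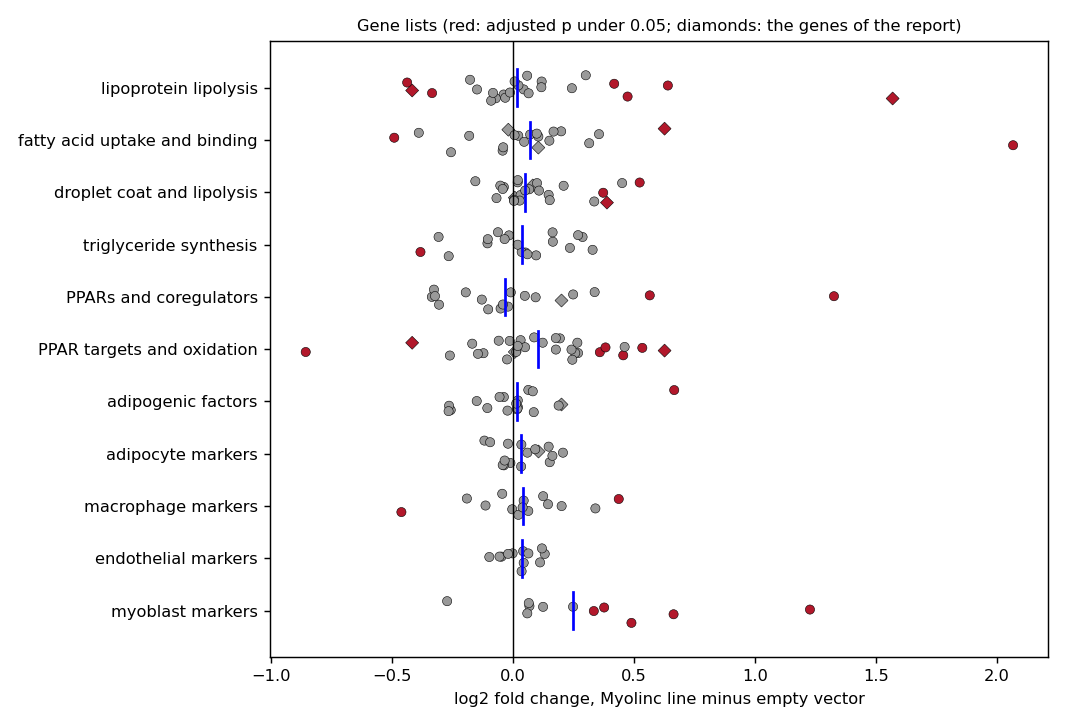
Log2 fold change (horizontal axis, Myolinc line minus empty vector) of every measured gene of 11 lists (rows; vertical scatter is for display); red points have an adjusted p under 0.05, diamonds are the lipid genes of the report and blue bars are list medians. Fabp7 (2.07), Lpl (1.57) and Ppargc1a (1.33) lie furthest right among the lipid lists, Pdk4 (-0.86) lies furthest left, and the adipocyte markers lie between -0.12 and 0.21.

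Genes that define adipocytes were read low in both groups. Of 16 measured adipocyte markers 0 rose and 0 fell in limma, 15 lay below the probe set median, and their log2 fold changes ran from -0.12 to 0.21. Their mean log2 level was 6.24 and 6.15 on the Myolinc arrays, against 6.19 and 6.12 on the empty vector arrays. Adipoq, the adiponectin gene, had 5.24 and 4.98 in the Myolinc line, against 5.21 and 5.26 in empty vector cells. Of 19 adipogenic factors and inhibitors 1 rose, Ebf1 (log2 fold change 0.67, SE 0.06, adjusted p = 0.0190), and 0 fell. Lpl and Fabp4 are also known from macrophages and Cd36 and Fabp4 from endothelium. Of 14 macrophage markers 1 rose (Cd14, 0.44, adjusted p = 0.0492 in limma) and 1 fell (Cd68, -0.46, adjusted p = 0.0258). Cd14 passed narrowly, and did not pass with each array centred on its median (0.0766). The mean levels of the macrophage markers were 6.30 and 6.24 in the Myolinc line, against 6.24 and 6.22 in empty vector cells. Of 12 endothelial markers 0 passed, with mean levels of 6.52 and 6.43 in the Myolinc line, against 6.49 and 6.41 in empty vector cells. The myoblast genes were read in both groups: 10 of 11 reached the probe set median, and Myod1 had 11.59 and 11.56 in the Myolinc line, against 11.54 and 11.47 in empty vector cells. Of these 11 genes 5 rose, among them the laminin receptor gene Itga7 (1.23, SE 0.06) and the muscle cadherin gene Cdh15 (0.49, SE 0.07), with mean levels of 10.48 and 10.47 in the Myolinc line, against 10.17 and 10.17 in empty vector cells. The part of these markers in the results for the lipid genes was not tested.

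Over the lists other than the marker lists, with the lipid genes of the report set aside, 143 genes were measured, of which 13 rose and 5 fell. That is 12.6%, beside 9.26% of all genes, and their median log2 fold change was 0.02. The lists were not matched to all genes for level, so the shares may not be like for like. Counted over all 11 lists, with the marker lists and the lipid genes of the report included, 29 genes passed. Without empty vector replicate 1 or 2 the count was 0, as it was for all genes in limma, where 3639 and 3322 of all genes still had an unadjusted p under 0.05. The count over the lists was 9 without Myolinc replicate 1 and 13 without Myolinc replicate 2.

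The genes next to each lipid gene on its chromosome mostly did not pass, as was so for genes in general, of which 9.26% passed. Of 18 such neighbours 2 rose and 0 fell: Sema3c, a semaphorin gene beside Cd36 (log2 fold change 1.53, SE 0.08), and Serinc2, beside Fabp3 on chromosome 4 (0.63, SE 0.06). The neighbours of Lpl, Ints10 (-0.15, SE 0.06) and Slc18a1 (0.11, SE 0.08), did not pass. Lpl lies on chromosome 8, where the median log2 fold change of 483 genes at or above the probe set median was -0.14; with that median removed, Lpl had a log2 fold change of 1.70 (adjusted p = 0.0126).

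Genes with the most similar profile were sought for the 4 genes that passed, by the Euclidean distance over the 4 arrays after each gene's own mean was removed. With 2 groups of 2 arrays this mainly finds genes with a difference of the same size. Nearest to Lpl were the peptide and histidine transporter gene Slc15a3 (distance 0.166), Synpo2l (0.173) and Sgca (0.177), the last of which encodes alpha-sarcoglycan of the muscle membrane. Nearest to Lipe were Itgbl1 (0.00972), Hadha (0.0130) and Cacng7 (0.0163). Nearest to Fabp3 were Ptprs (0.0171), Gsta4 (0.0184) and the connexin 43 gene Gja1 (0.0210). Nearest to Angptl4 were Meis1 (0.0143), the squalene synthase gene Fdft1 (0.0218) and D16Ertd472e (0.0220), none of which passed.

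**Figure D4:**
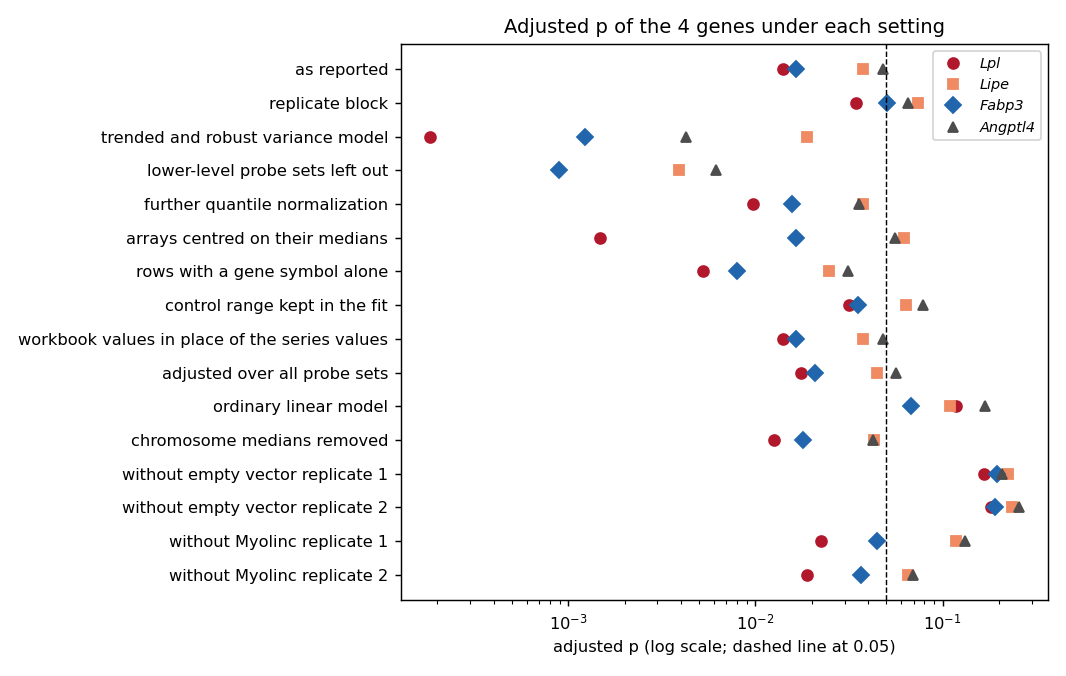
Adjusted p (horizontal axis, log scale, dashed line at 0.05) of Lpl, Lipe, Fabp3 and Angptl4 as reported and under 15 other settings (rows). All 4 lie right of the line without either empty vector array and with an ordinary linear model, as was so for all genes. Lpl and Fabp3 stay left of it without either Myolinc array. Lpl has no point where lower-level probe sets were left out because its own mean was below that level.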

How the data were processed

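Total RNA of 2 Myolinc line and 2 empty vector cultures was measured on Affymetrix arrays. Per the submitters' processing notes, the deposited log2 values come from RMA, and limma is named too; for versions, probe annotation and genome build, no label or header gives a name. Per the file headers, a log2 fold change and p-value per gene were deposited by the authors. In the authors' deposited table Lpl has 1.569 (p-value 0.00037) and Angptl4 -0.418 (p-value 0.00715), and whether these are adjusted is not stated.

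Of 35556 rows, the 6612 with the lowest numbers form an unbroken run without symbols and were left out. The remaining 28944 were fitted with limma 3.58.1 (R 4.3.3, lmFit and eBayes, default settings, two-sided, 2 residual and 2.185 prior degrees of freedom), without a filter on level, and p-values were adjusted over the 20193 genes with a symbol. The array medians lay between 7.24 and 7.35. The number of arrays limits the precision, and an exact permutation test of 2 against 2 cannot go below 0.333. The fit was tested on simulated data with independent noise of the same SD for every probe set. This checks the procedure and not the calls made here.

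The lipid genes and lists were chosen with earlier results of these data known. Named were all of the lipid genes, up to 4 genes per list with the smallest p among those past the threshold, all such genes of lists with 5 or fewer, neighbours and nearest profiles. Lrp8, Hadha, Cpt1a, Gpihbp1, Apoc2, Abhd5, G0s2, Plin1, Plin5, Ppara, Ppard, Rxra, Adipoq and Myod1 were added for their role or to complete a count, with values seen. Lists share members, and a few genes that the rule takes are not reported here. Symbols were matched to RefSeq for chromosome and order. Other settings were a replicate block, another variance model, filters, scalings, sets of rows, adjustments, thresholds, an ordinary linear model, removal of chromosome medians and leaving out each array.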

Additional observations from a re-analysis of the deposited data

How the results depend on the processing

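Of the 9 lipid genes, Pnpla2 and Fabp4 kept direction and side of the threshold under every setting that held them. Lpl, Fabp3, Lipe and Angptl4 kept their direction under every setting in which they were fitted; Lpl, Cd36 and Fabp4 have no value where lower-level probe sets were left out. Their log2 fold changes lay between 1.42 and 1.71 for Lpl, 0.58 and 0.63 for Fabp3, 0.35 and 0.42 for Lipe and -0.48 and -0.36 for Angptl4. Samples with the same replicate number share only that number (correlation of their deviations 0.215, from 2 pairs). With the number as a replicate block, 362 genes passed in place of 1870, 5 in place of 29 over the lists, and 1 lipid gene in place of 4; Lpl passed, while Fabp3 (0.63, adjusted p = 0.0505), Lipe (0.39, 0.0740) and Angptl4 (-0.42, 0.0652) did not. With a trended and robust variance model 4342 genes and 60 of the lists passed, with lower-level probe sets left out 4346 and 62, and Pparg (0.20) passed in both. With the control range kept in the fit 887 genes, 12 of the lists and 2 lipid genes passed, and Lipe (0.39, adjusted p = 0.0642) and Angptl4 (-0.42, 0.0789) did not. With arrays centred on their medians 19 of the lists and 2 lipid genes passed, Lipe (0.35) and Angptl4 (-0.46, adjusted p = 0.0560) did not, and Plin2 turned to -0.0352. Adjusted over all probe sets, Angptl4 (-0.42) did not pass (0.0566). At a threshold of 0.01, 127 genes, 2 of the lists and 0 lipid genes passed (5 lipid genes had an unadjusted p under 0.05 in limma), so Lpl (1.57), Fabp3 (0.63), Lipe (0.39) and Angptl4 (-0.42) did not; at 0.1, 3397 genes and 48 of the lists did. An ordinary linear model passed 0 genes, 0 of the lists and 0 lipid genes, with 4577 genes and 5 lipid genes at an unadjusted p under 0.05, and Lpl (1.57, adjusted p = 0.118), Fabp3 (0.63, 0.0675), Lipe (0.39, 0.109) and Angptl4 (-0.42, 0.169) did not pass. Leaving out 1 array gave 0 to 1226 genes, 0 to 13 of the lists and 0 to 2 lipid genes, Cd36 values of -0.0482 to 0.00792 (the last without empty vector replicate 1) and Plin2 values of -0.00156 (without Myolinc replicate 1) to 0.0146, and Fabp3 values of 0.62 to 0.63. The values of the deposited workbook and of the series table were the same. A fit on fewer arrays has fewer residual degrees of freedom and assumes that a lone array varies like the other group; the cause of the other changes was not tested. Cd36 and Fabp4, read below the median level in both groups, and Lpl in empty vector cells are limited by low signal.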
